A study of Mus musculus with 2207 samples.

Results

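The genes described here mark successive stages of the oligodendrocyte lineage in single nuclei of the mouse cerebral cortex: *Pdgfra*, *Cspg4* and *Vcan* for precursor cells, *Gpr17*, *Bcas1*, *Enpp6* and *Itpr2* for committed and newly formed oligodendrocytes, and *Sox10*, *Olig1* and *Olig2* for the whole lineage. They were taken by gene identifier from both expression tables, which gave 10 of the 52636 genes listed. Nuclei were sorted by DNA stain from the cortex of C57BL/6 mice at 14 weeks, amplified by RamDA-seq, a full-length total RNA method, and labelled Neuron, Oligodendrocyte or Microglia by the authors. The study compared mice lacking 1 copy of *Ehmt1*, a histone H3K9 methyltransferase gene, with wild type, and asked whether *Ehmt1* supplied after birth changes the nuclei. Of 2207 nuclei, 397 were labelled Oligodendrocyte, 1664 Neuron and 146 Microglia.

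On 96-well plates the 2 pools were wild type (Ehmt1+/+, written WT) and Ehmt1Δ/+. On 384-well plates there were 4 pools. WT here was taken as Ehmt1+/+ carrying the *Ehmt1* iTg transgene without Cre, and Ehmt1Δ/+ likewise as carrying the transgene without Cre. The paper's wording instead reads as CamKII-CreER in all 4 pools, with the transgene in the iTg pools only. Which arrangement holds was not tested. The iTg pool was Ehmt1+/+ with the transgene and CamKII-CreER, and the Ehmt1Δ/+;iTg pool was Ehmt1Δ/+ with both. The transgene sits at the Rosa26 locus behind the CAG promoter, and CamKII-CreER acts in forebrain neurons after birth. By the sample records, all pools received tamoxifen at 100 mg/kg 2 times from 3 weeks of age, and each genotype was 3 mice pooled. The paper names tamoxifen for the CamKII-CreER series, and does not name it for the nuclei of the WT and Ehmt1Δ/+ series. The plate formats may thus differ in treatment and mouse line as well as in plate. No nucleus could be traced to a mouse, so each genotype on each plate format was 1 sample and nuclei were not replicates.

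Oligodendrocyte precursors are dividing cells spread through the adult cortex that depend on platelet-derived growth factor and carry its receptor together with the NG2 proteoglycan. On commitment they shut these genes off, pass through a premyelinating stage marked by *Gpr17* and *Bcas1*, and then make myelin. SOX10 and OLIG2 act throughout this path, and OLIG1 contributes to myelination.

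Each nucleus at the median held 323273 to 397880 reads in the neuronal pools. Nuclei labelled Oligodendrocyte held 441701 to 478605 on 96-well plates but 49635 to 54877 on 384-well plates, so shares of glial nuclei above 0 were set side by side within a plate format. The authors set the labels from marker genes, so marker levels describe the label Oligodendrocyte and do not test it. *Mbp* was above 0 in every such nucleus and *Mog* in 98.5 to 100% per pool. *Mbp* was also above 0 in 79.1 to 94.5% of neurons per pool, but at means of 4.0 to 8.3 RPKM against 652 to 955 in oligodendrocytes. *Ehmt1* RNA, read over the whole gene, was higher in the nuclei labelled Ehmt1Δ/+ than in WT of the same format, at 25.8 against 17.5 RPKM in oligodendrocytes on 96-well plates and 32.6 against 21.8 on 384-well plates. In brain lysate the paper found less GLP, the protein that *Ehmt1* encodes, in Ehmt1Δ/+ mice than in WT. This RNA and that protein thus point different ways, and every genotype below is given as labelled.

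A pair of nuclei went against their label before any comparison was made. Both were labelled Neuron, in the 96-well pool labelled Ehmt1Δ/+, and both carried the full set of precursor genes at high levels (below). Among the 265 neurons of that pool they held 97.3% of all *Pdgfra* RPKM, 98.9% of *Cspg4* and 56.0% of *Vcan*, so means of that pool are given with and without them.

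*Pdgfra*, *Cspg4* and *Vcan*, which were read together in those nuclei, lie on different chromosomes. The 250 bases before the RefSeq start of *Pdgfra*, *Cspg4* and *Vcan* are shown because these are the genes the co-detection turns on, and that of *Olig2* because it was the highest of the 3 transcription factor genes in both nuclei. The sequences are from RefSeq, build GRCm38.p6, written 5′ to 3′ on the strand of the gene, and capitals mark a CCAAT or TATAAA match on either strand (ATTGG is CCAAT read from the other strand).
Pdgfra, chr5:75152001-75152250, plus strand: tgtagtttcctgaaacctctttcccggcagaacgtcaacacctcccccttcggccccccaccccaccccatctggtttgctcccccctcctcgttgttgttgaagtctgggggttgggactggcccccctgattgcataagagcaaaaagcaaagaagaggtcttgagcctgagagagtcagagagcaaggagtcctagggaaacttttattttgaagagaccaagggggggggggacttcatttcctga
Cspg4, chr9:56864854-56865103, plus strand: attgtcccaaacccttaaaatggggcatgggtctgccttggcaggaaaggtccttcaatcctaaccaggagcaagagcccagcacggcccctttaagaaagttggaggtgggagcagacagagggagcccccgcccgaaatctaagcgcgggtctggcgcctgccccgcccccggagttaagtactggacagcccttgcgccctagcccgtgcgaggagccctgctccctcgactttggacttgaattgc
Vcan, chr13:89742513-89742762, minus strand: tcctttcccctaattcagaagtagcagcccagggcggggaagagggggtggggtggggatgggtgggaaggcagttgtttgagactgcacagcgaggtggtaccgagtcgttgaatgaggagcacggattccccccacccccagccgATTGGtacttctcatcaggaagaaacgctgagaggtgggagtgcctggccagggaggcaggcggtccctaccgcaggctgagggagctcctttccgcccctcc
Olig2, chr16:91225300-91225549, plus strand: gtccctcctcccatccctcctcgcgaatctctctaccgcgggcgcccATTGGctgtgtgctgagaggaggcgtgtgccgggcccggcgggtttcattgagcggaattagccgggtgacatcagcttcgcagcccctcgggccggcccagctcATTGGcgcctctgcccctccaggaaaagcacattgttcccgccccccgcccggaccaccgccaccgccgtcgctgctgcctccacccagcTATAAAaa
Promoter sequence was taken for 6 of the 10 genes. Neither ACAAAG, the core letters that SOX factors prefer, nor CAGCTG, an E-box, was present on either strand in any of the 6 windows, against 16.5% and 13% of 32851 promoters of the same length. CCAAT lay in 3 of the 6 windows and in 33.8% of all promoters. TATAAA lay in 1 of the 6, that of *Olig2*, and in 12.4% of all. None of these 4 motifs was found in the *Pdgfra* or *Cspg4* window. The *Olig2* window was the richest in G and C of the 4 shown, at 66.8%, and that of *Pdgfra* the lowest, at 54.4%, with a median of 52.4% over all promoters. A match of letters is a description of the window and not a bound site.

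*Pdgfra* encodes the receptor for platelet-derived growth factor A (ENSMUSG00000029231.15, mm10 chr5:75152292-75198215, plus strand). In nuclei labelled Oligodendrocyte it was above 0 in 2 of 73 in the WT pool and 1 of 71 in the pool labelled Ehmt1Δ/+ on 96-well plates. On 384-well plates it was above 0 in 0 of 69 WT nuclei, which allows a share of up to 4.35%, in 2 of 46 labelled Ehmt1Δ/+, in 1 of 71 iTg and in 1 of 67 Ehmt1Δ/+;iTg. The highest value in any of these nuclei was 13.1 RPKM. *Pdgfra* was therefore a rare event in oligodendrocyte nuclei of every pool, and no share exceeded 4.35%. In neurons it was above 0 in 1.05 to 4.35% of nuclei, and in no microglial nucleus.

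*Cspg4*, the NG2 proteoglycan gene (ENSMUSG00000032911.6, chr9:56865033-56899870, plus strand), was above 0 in 12 of 73 WT and 7 of 71 labelled Ehmt1Δ/+ oligodendrocytes on 96-well plates. Exact binomial 95% intervals for these shares of 16.4% and 9.86% were 8.79 to 27.0% and 4.06 to 19.3%, which overlap. The intervals here and the limits on a count of 0 cover counting error only. On 384-well plates the share was 4.35 to 8.70%. In neurons it was 1.89 to 5.53%, so the oligodendrocyte share was the higher of the pair in each of the 6 pools, without reaching a level above 32.5 RPKM in any nucleus.

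*Vcan*, which encodes versican, a proteoglycan of the extracellular matrix (ENSMUSG00000021614.16, chr13:89655312-89742509, minus strand), ran the other way. It was above 0 in 28.5% of WT and 31.7% of labelled Ehmt1Δ/+ neurons on 96-well plates, and in 23.2, 24.8, 28.7 and 25.0% of WT, Ehmt1Δ/+, iTg and Ehmt1Δ/+;iTg neurons on 384-well plates. In oligodendrocytes it was above 0 in 6.85% of WT and 7.04% of labelled Ehmt1Δ/+ nuclei on 96-well plates and in 0 to 4.35% on 384-well plates. Mean levels in neurons were 1.91 and 3.18 RPKM on 96-well plates, the latter 1.41 without the pair of nuclei with precursor genes, and 1.0 to 1.52 on 384-well plates. Neurons on 384-well plates were read far deeper than oligodendrocytes, which raises their share above 0. After thinning to 48585 reads, with shallower nuclei left out, the share was 17.7 to 25.5% in neurons and 0 to 6.94% in oligodendrocytes per pool. *Vcan* was thus read more often in neurons than in oligodendrocytes, but the labels themselves were set by the authors from marker genes, so this is a description with no test.

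**Figure D1:**
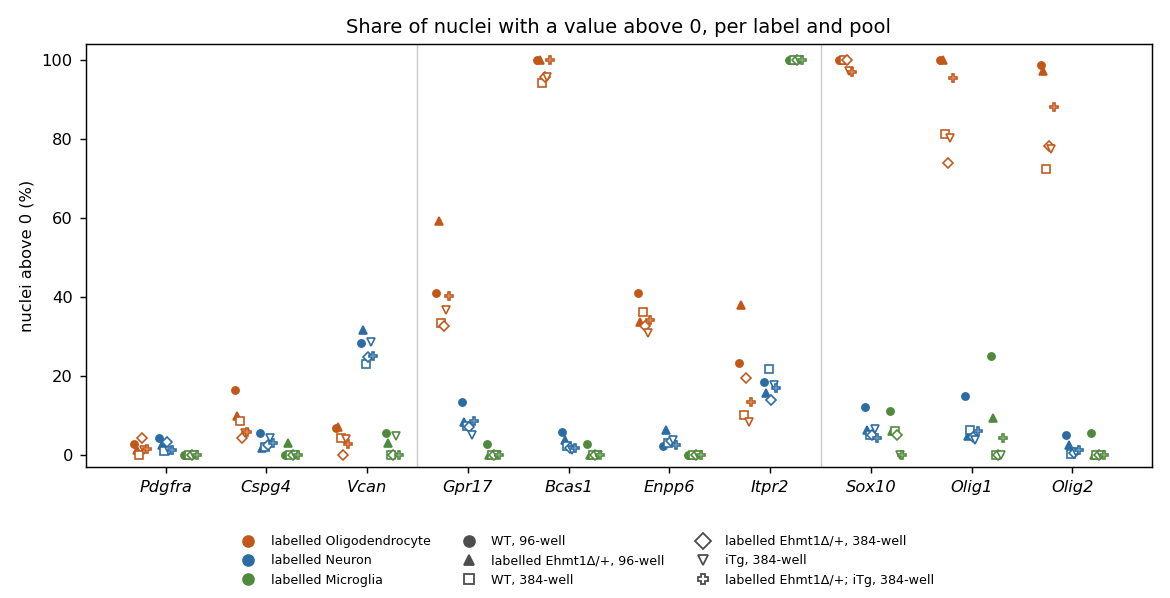
Share of nuclei with the gene above 0 RPKM (percent, vertical axis) for the 10 genes in each of the 6 pools, coloured by the label Oligodendrocyte, Neuron or Microglia, with 1 point per pool and no error bars. *Vcan* lies higher in neurons (23.2 to 31.7%) than in oligodendrocytes (0 to 7.04%), *Itpr2* is at 100% in microglia, and *Bcas1* and *Sox10* are above 94% in oligodendrocytes of every pool. The shares drawn are not matched for depth.

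Within neurons the highest *Vcan* levels raised the mean of one transmitter class. Neurons were divided by the larger of *Gad1*, an enzyme that makes GABA, and *Slc17a7*, a vesicular glutamate transporter, a division chosen with values of these data known, and the pair of nuclei with precursor genes was left out. Mean *Vcan* was higher in the *Gad1* class in 6 of 6 pools, at 4.03 against 1.22 RPKM in WT and 4.87 against 0.773 in the pool labelled Ehmt1Δ/+ on 96-well plates. On 384-well plates the means were 3.59 against 0.723, 1.4 against 0.902, 3.57 against 1.02 and 3.11 against 0.574 for WT, Ehmt1Δ/+, iTg and Ehmt1Δ/+;iTg. These means rest on few nuclei, 1 to 8 per pool at 10 RPKM or more in the *Gad1* class, and without the nuclei at 10 RPKM or more in either class, a limit chosen after seeing the data, they were 0.906 against 0.774 and 1.78 against 0.773 on 96-well plates, and 0.570 against 0.643, 1.01 against 0.633, 0.712 against 0.711 and 0.781 against 0.476 on 384-well plates. The order was then reversed in the WT pool on 384-well plates and lost in the iTg pool. The share above 0 was lower in the *Gad1* class in 2 pools, at 27.4 against 28.8% in WT on 96-well plates and 23.1 against 24.9% in Ehmt1Δ/+ on 384-well plates. In all, 10 RPKM or more was reached by 37 of 1662 neurons other than the pair with precursor genes, and the highest was 106 RPKM.

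Single nuclei with all 3 precursor genes were few. Of 2207 nuclei, 3 had *Pdgfra*, *Cspg4* and *Vcan* all above 0, and all 3 were labelled Neuron. None of the 397 oligodendrocytes had the 3 genes together, which allows a share of up to 0.756%, and none of the 146 microglia did. The product of the 3 shares, taken in each pool and label and summed, came to 0.398 nuclei. A requirement of at least 2 reads of each gene left the same count of 3, and at least 1 or 10 RPKM of each left 2. Exactly 1 of the 3 genes was read in 50 oligodendrocytes and 472 neurons. Any 2 were read in 5 oligodendrocytes, of which 4 had *Cspg4* with *Vcan* and 1 had *Pdgfra* with *Cspg4*.

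The pair of nuclei in the pool labelled Ehmt1Δ/+ stood far from all others. Their *Pdgfra* levels were 343 and 339.7 RPKM (1470 and 1501 reads), and the next nucleus of the series had 14.6 RPKM. *Cspg4* was at 243 and 263 RPKM, with the next at 32.5, and *Vcan* at 220 and 252 RPKM, with the next at 106. Both nuclei were thus above every other nucleus for each of the 3 genes. *Olig2* was at 163 and 217 RPKM, *Sox10* at 110 and 125, and *Olig1* at 47.7 and 89.2. In no other neuron of any pool were these 3 transcription factor genes all above 0.

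The rest of the precursor marker list, the 9 genes not used to find them, was above 0 in both nuclei. Of these, 8 in the first nucleus and 6 in the second exceeded every other neuron. *Tnr*, encoding tenascin-R, was at 467 and 362 RPKM, *Ptprz1*, a receptor phosphatase gene, at 332 and 283, and *Matn4*, a matrix protein gene, at 203 and 309.95. *C1ql1* was at 42.9 and 43.1 RPKM, while in oligodendrocytes of the same pool it was 0 in every nucleus. Summed over the 9 genes, the nuclei held 1490.3 and 1338 RPKM, against means of 33.7 to 46.5 per neuronal pool and 6.79 to 14.0 per oligodendrocyte pool.

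Genes of later stages were not uniformly present in the pair. *Gpr17* was at 749.8 and 219 RPKM, *Bcas1* at 97.7 and 57.7, and *Neu4*, a sialidase gene of the early lineage, at 37.4 and 248. *Enpp6* was 0 in both. Of 16 mature oligodendrocyte markers, 6 and 5 were above 0. *Mbp* was at 30.8 and 1.08 RPKM, against a median of 791 in oligodendrocytes of the pool, and *Mog* was 0 in both. The first nucleus had more *Mbp* than the second, and both were far under the oligodendrocytes.

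Most neuronal genes were low in the pair although their label was Neuron, with 2 and 1 of 9 neuronal markers above the neuronal median. *Meg3*, a noncoding RNA abundant in neuronal nuclei, was at 30.2 and 4.39 RPKM against a pool median of 708. *Snap25*, a synaptic vesicle fusion gene, was at 18.3 and 14.7 against 133, and *Rbfox3*, which encodes NeuN, was 0 in both against 22.8. *Gad1* was at 23.3 and 18.7 RPKM, above the pool median of 0 and mean of 12.2, and *Tubb3* at 12.5 and 0 against a median of 3.14. None of 11 markers of vascular, mural and fibroblast cells, which also use *Pdgfra* or *Cspg4*, was above 0 in either nucleus. Of 9 microglial markers 1 and 4 were above 0, with *Ctss* at 0 in both, and of 7 astrocyte markers 3 and 4, with *Gja1* and *Gfap* at 0. *Aqp4*, the astrocyte water channel gene, was at 0 and 17.9 RPKM, the latter above every other neuron, the glutamate transporter gene *Slc1a3* at 16.2 and 31.1, and *Slc1a2*, also read in neurons, at 25.8 and 87.4. Both nuclei carried a plate code that WT nuclei also carried. They had 427044 and 440860 reads and 13322 and 13220 genes above 0, against pool medians of 352622 and 15966.

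The third nucleus was unlike the pair. It was a WT neuron on a 96-well plate with 0.823 RPKM of *Pdgfra*, 1.15 of *Cspg4* and 0.380 of *Vcan*, which were 3, 5 and 2 reads. *Sox10*, *Olig1* and *Olig2* were 0, all 9 neuronal markers were above 0, and *Meg3* was at 978 RPKM. It therefore passed the rule on low counts alone.

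**Figure D2:**
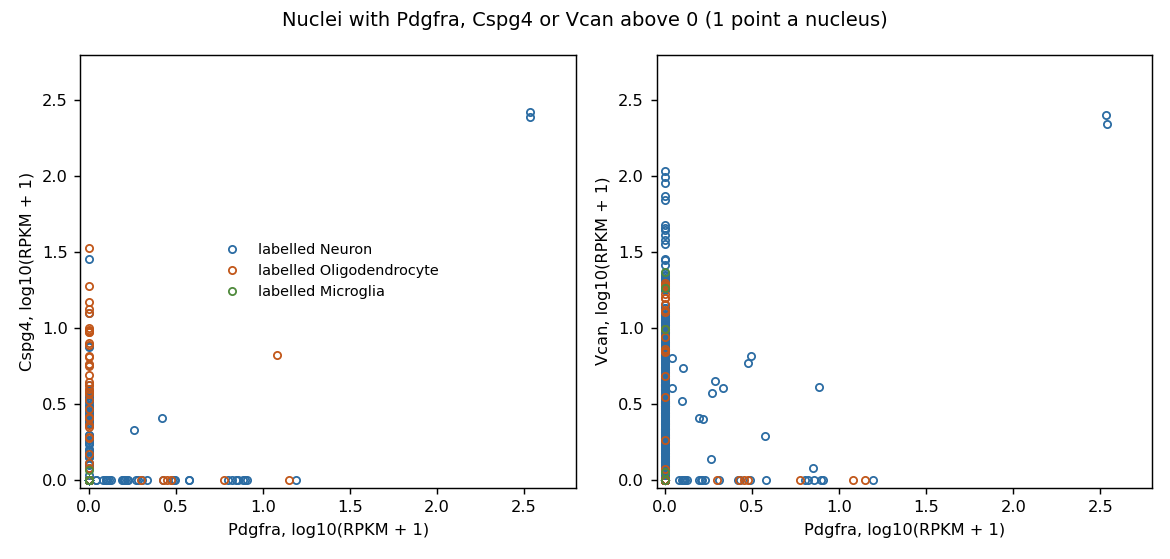
*Pdgfra* (horizontal) against *Cspg4* (left) and *Vcan* (right), each as log10(RPKM + 1), with 1 point per nucleus that has any of the 3 genes above 0, coloured by label. The pair at the upper right, both labelled Neuron, lies at 339.7 to 343 RPKM of *Pdgfra*, while every other nucleus is at 14.6 RPKM or less.

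**Figure D3:**
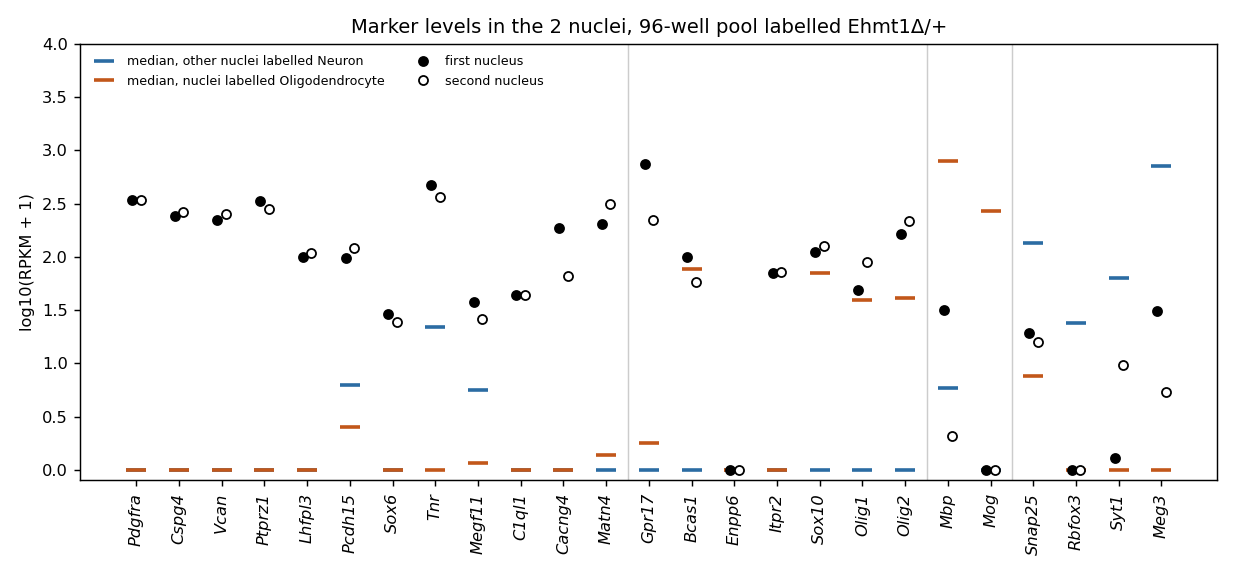
Levels of lineage, neuronal and myelin genes as log10(RPKM + 1) in the pair of nuclei with precursor genes, beside the medians of neurons and oligodendrocytes of the same pool. *Pdgfra*, *Cspg4* and *Vcan* are at 220 RPKM or more in the pair, where both medians are 0, and *Mog* and *Rbfox3* are at 0.

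Among genes of committed and newly formed cells, *Bcas1* (ENSMUSG00000013523.13, chr2:170346991-170427845, minus strand), a gene of early myelinating cells that stays on in mature ones, was read almost everywhere. It was above 0 in 73 of 73 WT and 71 of 71 labelled Ehmt1Δ/+ oligodendrocytes on 96-well plates, and in 94.2 to 100% per pool on 384-well plates. Its mean was 86.0 and 77.2 RPKM on 96-well plates and 53.0, 60.5, 58.6 and 67.4 for WT, Ehmt1Δ/+, iTg and Ehmt1Δ/+;iTg on 384-well plates. The SD over nuclei was 35.9 to 42.8 RPKM. In neurons the share was 1.45 to 5.93%. Antisense genes overlap *Bcas1* and its reads divide into whole numbers in only 53.0% of nuclei (within 0.02 of a read), so part of its level may belong to them.

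*Gpr17*, a receptor of premyelinating oligodendrocytes (ENSMUSG00000052229.5, chr18:31942997-31949636, minus strand), was above 0 in 30 of 73 WT oligodendrocytes (41.1%) and 42 of 71 labelled Ehmt1Δ/+ (59.2%) on 96-well plates. On 384-well plates the shares were 33.3, 32.6, 36.6 and 40.3% for WT, Ehmt1Δ/+, iTg and Ehmt1Δ/+;iTg. The intervals of the 96-well pools overlap, at 29.7 to 53.2% and 46.8 to 70.7%, and so do those of the 4 pools on 384-well plates. Mean levels were 4.76 and 6.45 RPKM on 96-well plates and 4.85 to 8.05 on 384-well plates, and 86 of the 397 oligodendrocytes reached 10 RPKM. In neurons the share was 5.09 to 13.4%.

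The exons of *Gpr17* overlap *Lims2* on the other strand, and reads without strand cannot be told apart between them. *Lims2* was higher in oligodendrocytes with *Gpr17* above 0 than in those without in 6 of 6 pools, at 11.4 against 1.08 RPKM in WT and 14.0 against 2.64 in labelled Ehmt1Δ/+ nuclei on 96-well plates. On 384-well plates the pairs were 39.3 and 10.5, 30.0 and 9.05, 34.8 and 9.36, and 31.1 and 12. Among 9835 genes measured in oligodendrocytes, 1.9% were higher and 1.99% lower in all 6 pools by this division. In the pair of nuclei with precursor genes, *Gpr17* was 749.8 and 219 RPKM and *Lims2* 84.4 and 25.1, so *Gpr17* was the larger by far. In oligodendrocytes with *Gpr17* above 0 on 96-well plates it averaged 11.6 and 10.9 RPKM, close to *Lims2*, and on 384-well plates 14.6 to 20 RPKM, below *Lims2*. How much of the *Gpr17* signal in oligodendrocytes was *Lims2* was not tested.

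*Enpp6*, a choline phosphodiesterase gene used as a marker of newly forming oligodendrocytes (ENSMUSG00000038173.15, chr8:46986887-47096762, plus strand), was above 0 in 41.1% of WT and 33.8% of labelled Ehmt1Δ/+ oligodendrocytes on 96-well plates. On 384-well plates it was above 0 in 36.2, 32.6, 31.0 and 34.3% of WT, Ehmt1Δ/+, iTg and Ehmt1Δ/+;iTg nuclei. About 1 nucleus in 3 carried the gene in every pool, and 110 of 397 reached 10 RPKM, with a maximum of 143 RPKM. In neurons the share was 2.37 to 6.42% and in microglia it was 0. After thinning every oligodendrocyte to 48585 reads they were 32.1 to 42.8%, with 22 to 30 nuclei of each 384-well pool left out as too shallow.

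*Enpp6* divided the mature myelin genes. Oligodendrocytes with *Enpp6* above 0 had lower mean *Opalin*, a late myelin membrane gene, than those without in 6 of 6 pools, at 101 against 151 RPKM in WT and 41.6 against 135 in labelled Ehmt1Δ/+ nuclei on 96-well plates. On 384-well plates the pairs were 90.7 and 119.9, 99.6 and 161, 79.3 and 107, and 85.4 and 135. *Hapln2*, which links matrix at nodes of Ranvier, was higher in 6 of 6 pools, at 309 against 229 and 525 against 234 RPKM on 96-well plates. On 384-well plates its pairs were 932 and 458, 977 and 431, 952 and 601, and 808 and 371.

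*Olig2* moved with *Opalin*. It was lower in oligodendrocytes with *Enpp6* in 6 of 6 pools, with means of 27.1 to 40.9 RPKM against 44.7 to 62.6 in those without. *Bcas1* and *Mag*, a myelin adhesion gene, were also lower in all 6 pools (*Bcas1* by only 76.9 against 77.3 RPKM in the 96-well pool labelled Ehmt1Δ/+), and *Trf* (transferrin), *Ugt8a* (myelin lipid synthesis) and *Anln* were higher in all 6. Of 16 mature markers, 4 were higher and 2 lower in all 6 pools. Among the 9835 genes, 5.5% were higher and 4.79% lower in all 6. These genes were named after their values were seen, and no test was made.

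**Figure D4:**
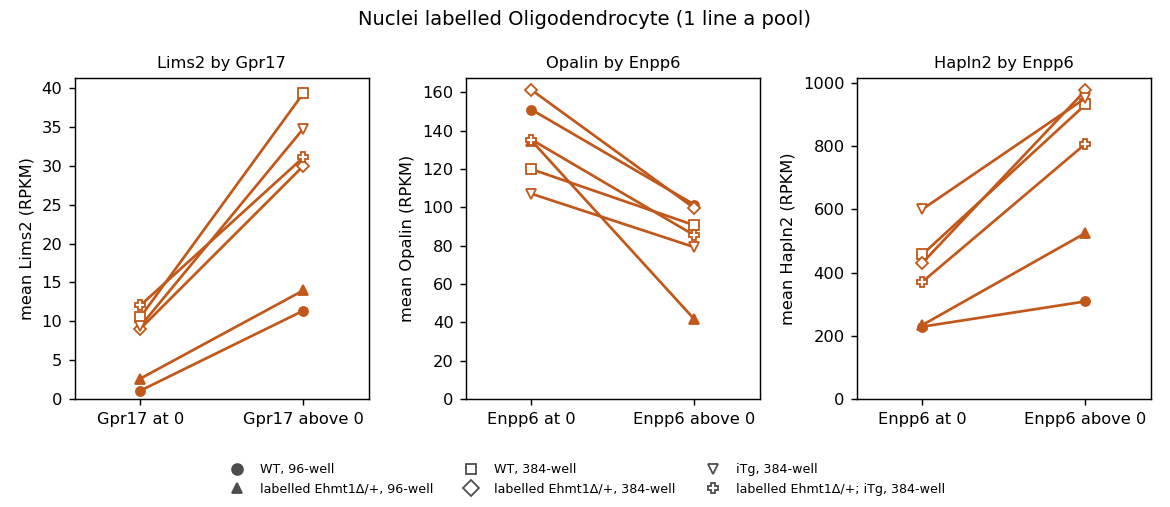
Mean levels (RPKM) in oligodendrocytes with *Enpp6* or *Gpr17* above 0 against those at 0, with 1 line per pool, for *Lims2*, *Opalin* and *Hapln2*. *Opalin* is lower and *Hapln2* higher with *Enpp6* in all 6 pools, and *Lims2* is higher with *Gpr17* in all 6.

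*Gpr17* and *Enpp6* were not read in the same nuclei more often than their shares gave. Both were above 0 in 52 of 397 oligodendrocytes, and the product of the shares, summed over pools, was 57.1. A further 111 nuclei had *Gpr17* alone, 87 had *Enpp6* alone and 147 had neither. The pair of nuclei with precursor genes had the first and not the second.

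*Itpr2*, an intracellular calcium channel gene (ENSMUSG00000030287.15, chr6:146108299-146502223, minus strand), was highest in microglia. It was above 0 in every microglial nucleus, with means of 36.3 and 38.0 RPKM on 96-well plates and 43.1 to 57.0 on 384-well plates, and 140 of 146 nuclei reached 10 RPKM. In oligodendrocytes it was above 0 in 23.3% of WT and 38.0% of labelled Ehmt1Δ/+ nuclei on 96-well plates, with means of 0.992 and 1.72 RPKM. On 384-well plates the shares were 10.1, 19.6, 8.45 and 13.4% and the means 1.70, 2.73, 0.246 and 0.641 RPKM for WT, Ehmt1Δ/+, iTg and Ehmt1Δ/+;iTg.

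In neurons *Itpr2* was above 0 in 14.1 to 21.8% of nuclei, with means of 0.312 to 0.781 RPKM. The top of that range was the 96-well pool labelled Ehmt1Δ/+, whose mean was 0.254 RPKM without the pair with precursor genes, each of which had about 70 RPKM (69.8 and 70.3). The share was higher in the *Gad1* class in 6 of 6 pools, at 25.8 against 16.2% in WT and 19.5 against 13.6% in labelled Ehmt1Δ/+ neurons on 96-well plates. Apart from the pair, no neuron exceeded 16.7 RPKM, which was under the mean of every microglial pool (36.3 to 57.0 RPKM). Single nuclei overlapped, since 10 of 1662 such neurons reached 10 RPKM, and 140 of 146 microglia did.

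*Sox10* encodes the SOX factor that drives myelin genes (ENSMUSG00000033006.9, chr15:79154908-79165240, minus strand, coordinates from a later version of the identifier). It was above 0 in every oligodendrocyte of both 96-well pools and of the WT and Ehmt1Δ/+ pools on 384-well plates, and in 97.2% of iTg and 97.0% of Ehmt1Δ/+;iTg nuclei. Its means were 71.7 and 79.3 RPKM on 96-well plates and 276, 271, 199 and 172 for WT, Ehmt1Δ/+, iTg and Ehmt1Δ/+;iTg on 384-well plates. The 384-well means were all above the 96-well ones, in tables made separately from libraries of very different glial depth, and the part of either in that gap was not tested.

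*Olig2*, which encodes a basic helix-loop-helix factor that specifies the lineage (ENSMUSG00000039830.8, chr16:91225457-91228677, plus strand, coordinates from a later version of the identifier), was above 0 in 98.6 and 97.2% of oligodendrocytes on 96-well plates and 72.5 to 88.1% on 384-well plates. Its means were 40.2 and 46.9 RPKM on 96-well plates and 38.3, 52.4, 55.5 and 49.6 on 384-well plates. *Olig2* did not share the step of *Sox10* between formats. In neurons on 384-well plates it was above 0 in 0.351 to 1.43% of nuclei, and no other gene of the 10 had a lower share in any of these 4 pools.

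*Olig1*, a relative of *Olig2* on the same chromosome (ENSMUSG00000046160.6, chr16:91269772-91271933, plus strand, overlapped by the antisense gene *Gm15966*), was above 0 in every oligodendrocyte on 96-well plates and in 81.2, 73.9, 80.3 and 95.5% of WT, Ehmt1Δ/+, iTg and Ehmt1Δ/+;iTg nuclei on 384-well plates. The last pool also had the highest mean on 384-well plates, 67.5 RPKM against 39.1 to 44.9 in the others, with an SD over nuclei of 48.1. After thinning to 48585 reads, *Olig1* was above 0 in 73.6 to 97.1% of oligodendrocytes and *Olig2* in 69.5 to 89.6%.

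The same genes in neurons were read more often in the WT 96-well pool. *Olig1* was above 0 in 15% of its neurons against 4.91% in the pool labelled Ehmt1Δ/+, and *Sox10* in 12.3 against 6.42%. In its microglia, *Olig1* was above 0 in 25.0%. The reverse was seen in oligodendrocytes, where *Snap25* was above 0 in 100% of WT and 70.4% of labelled Ehmt1Δ/+ nuclei and *Gad1* in 57.5 and 33.8%. *Enpp6* went the other way in neurons, at 2.37% in WT and 6.42% in the pool labelled Ehmt1Δ/+. The part of RNA from other cells in the low shares of *Pdgfra* and *Cspg4* was not tested.

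The comparison of genotypes asked whether the lineage genes differed between nuclei labelled Ehmt1Δ/+ and WT. In oligodendrocytes *Itpr2* was the furthest from no change, higher in the nuclei labelled Ehmt1Δ/+ by 0.69 ± 0.26 (SE) on the log2(mean RPKM + 0.1) scale over both formats (95% interval −0.06 to 1.44, limma adjusted p = 0.870). It was higher in both formats, by 0.73 on 96-well and 0.65 on 384-well plates. Nuclei with a shared plate code did not all follow. *Itpr2* was above 0 in 4 of 21 WT and 7 of 20 labelled Ehmt1Δ/+ oligodendrocytes under one code, and in 4 of 20 and 7 of 14 under another. Under the remaining one it was above 0 in 4 of 18 and 3 of 17. A limma fit over these 3 codes with the code as a block gave a log2 ratio of 0.46 ± 0.43 (adjusted p = 0.761). A shared code was not 1 plate, since 1 code held 63 WT and 60 labelled Ehmt1Δ/+ neurons against 96 wells. The labels do not say what nuclei of a shared code had in common.

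The other lineage genes lay closer to no change. The log2 ratios were 0.34 ± 0.27 for *Olig2*, 0.26 ± 0.27 for *Gpr17*, 0.25 ± 0.31 for *Enpp6*, 0.09 ± 0.27 for *Olig1*, 0.06 ± 0.26 for *Sox10* and 0.02 ± 0.27 for *Bcas1*. *Itpr2*, *Olig2* and *Gpr17* kept one direction in both formats, 3 of the 7 genes tested, against 52.5% of all genes tested. None of the 7 passed limma with an adjusted p under 0.05, where 0% of 12832 genes did, and none had an unadjusted p under 0.05, where 606 of all genes did. For *Itpr2* the unadjusted p was 0.0201 in the fit over 6 pools and 0.0488 with means weighted by depth, with adjusted p of 0.871 and 0.866 from limma. *Pdgfra*, *Cspg4* and *Vcan* were under the filter of 10% of nuclei in oligodendrocytes and were not tested. The median ratio was 0.25 for the 7 genes and −0.02 for all genes tested. All 7 of the 95% intervals spanned 0, and that of *Enpp6* was the widest, at −0.64 to 1.13.

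No lineage gene passed a 2-fold difference in the same direction in both formats in oligodendrocytes, where 1.34% of genes did. At 1.5-fold *Itpr2* alone passed, beside 5.69% of all genes. The fit rests on 4 pools with 1 residual degree of freedom, 1 pool per genotype and format.

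In neurons *Vcan* and *Itpr2* were the only genes of the 10 above the filter. As labelled, the log2 ratio of *Vcan* was 0.11 ± 0.33, at 0.70 on 96-well and −0.49 on 384-well plates, and that of *Itpr2* 0.22 ± 0.42, at 0.98 and −0.54. The formats thus pointed opposite ways for both genes. Without the pair of nuclei with precursor genes the 96-well ratios became −0.41 and −0.33, and the ratios over both formats −0.45 ± 0.10 for *Vcan* (adjusted p = 0.459, unadjusted 0.0151) and −0.44 ± 0.12 for *Itpr2* (adjusted p = 0.463, unadjusted 0.0241). A pair among 265 nuclei therefore set the direction of both genes in that pool. The pair was picked by high *Pdgfra*, *Cspg4* and *Vcan*, so leaving it out lowers *Vcan* there by choice. WT neurons at up to 106 RPKM of *Vcan* stayed in. The p-values without the pair are thus no test of a lower *Vcan*. With the highest nucleus of each pool left out instead, the other of the pair stayed and the ratios were 0.10 and 0.0063. Neither gene was called with or without the pair, with 0% of 23853 genes called by limma and 2428 at an unadjusted p under 0.05. Neither passed 2-fold in both formats, where 0.231% of genes did.

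**Figure D5:**
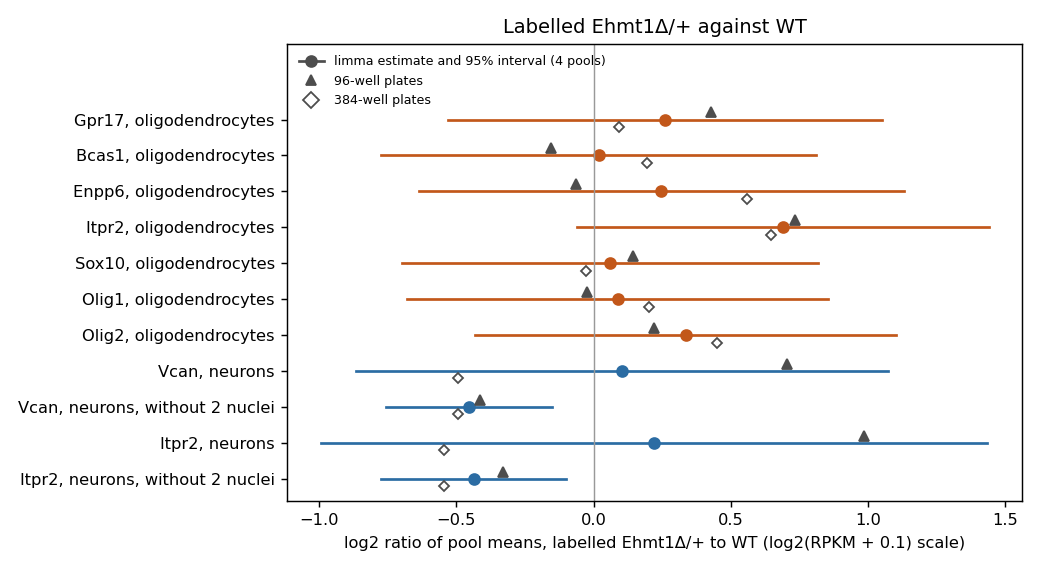
Log2 ratio of nuclei labelled Ehmt1Δ/+ to WT, on the log2(mean RPKM + 0.1) scale, for each lineage gene tested, with the values of each plate format and the limma estimate with its 95% interval. Every interval of the 7 genes in oligodendrocytes spans 0, and *Vcan* and *Itpr2* in neurons are drawn with and without the pair of nuclei with precursor genes, the unadjusted intervals without it lying below 0. The pair was picked in part by high *Vcan*, so the *Vcan* interval without it is no test.

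The pools with transgene and Cre have no 96-well counterpart. *Itpr2* in oligodendrocytes had a lower mean in both of them (0.246 and 0.641 RPKM) than in the WT and Ehmt1Δ/+ pools of the same format (1.70 and 2.73). The same held for *Sox10* (199 and 172 against 276 and 271). In a limma fit over 6 pools with plate format, *Ehmt1* deletion and transgene with Cre as terms, the log2 ratio of pools with transgene and Cre to those without was −2.16 ± 0.30 for *Itpr2* (adjusted p = 0.803, unadjusted 0.00086) and −0.56 ± 0.29 for *Sox10* (adjusted p = 0.830). None of the 7 genes tested was called, where 0% of 12832 genes were and 795 had an unadjusted p under 0.05. *Itpr2* was above 0 in only 6 and 9 nuclei of those pools, and this fit was added after the levels were seen.

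A wider list of 35 lineage genes was followed beside the 10. In oligodendrocytes 15 of them had a mean above that of neurons in all 6 pools and 13 a mean below it in all 6. The pair of nuclei with precursor genes was left out of these neuronal means. The 6 highest were *Myrf*, the transcription factor gene of myelination, at 222 RPKM, *Epn2* at 77.3, *Zfp536* at 66.6, *Gpr37* at 61.6, *Sox8* at 55.9 and *St18* at 46.3. In oligodendrocytes 19 of the 35 could be compared between genotypes. None was called by limma and 1 had an unadjusted p under 0.05, *Megf11*, with a log2 ratio of 1.02 ± 0.33 (adjusted p = 0.870). In neurons 24 could be compared, with none called and 6 at an unadjusted p under 0.05 (2 higher and 4 lower), beside the 2428 of 23853 among all genes. This fit kept the pair of nuclei with precursor genes, which carry genes of the list. Of the 2 higher, *Cacng4* had a ratio of 0.30 on 96-well plates. Without the pair its means there were 0.904 RPKM in the pool labelled Ehmt1Δ/+ against 1.48 in WT, the other direction. *Sox5*, the other, stayed higher there, at 8.15 against 6.19. Both were named after their values were seen. The median ratio was 0.08 in oligodendrocytes and −0.08 in neurons, against −0.02 and −0.03 for all genes tested.

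The genes whose means ran most like that of *Sox10* over the 18 combinations of pool and label were *Nkx2-2* and *Erbb3*, both with a Pearson r of 0.986. *Nkx2-2* is a homeobox factor gene of the lineage and *Erbb3* a neuregulin receptor gene. The next were *Mir6917*, *Nbas* and *Cdc42ep1*. The points share libraries and labels, and 125 of 15986 genes had an r above 0.95. For *Pdgfra* the genes most alike were near 0 in every pool, except *Cspg4* with an r of 0.737. That r includes the pool that holds the pair of nuclei, and it was not computed without them.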

How the data were processed

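Per the methods of the study, nuclei were sorted by DAPI, amplified by RamDA-seq and sequenced. The submitters' processing notes name HISAT2 2.0.4, featureCounts (Subread 1.5.0) and mm10. The deposited values were RPKM per nucleus, made by the authors, who had removed nuclei of weak cell-type character and assigned the labels from marker genes.

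Members and gene lists were chosen with earlier results of these data known. Read numbers were recovered from RPKM steps where whole. Genes named in the text were the 10 members, the 6 highest of the 35 other lineage genes, 5 genes most alike to *Sox10* and to *Pdgfra*, and marker genes, and others are said to be chosen after their values were seen. Mean RPKM per pool was compared on the log2(mean + 0.1) scale with limma 3.58.1 (R 4.3.3), plate format as a block, for genes above 0 in at least 10% of nuclei of a genotype in both formats. The p-values were adjusted by Benjamini-Hochberg, and the fit was tested on simulated data. They measure the spread between pools, which may be technical. Other steps used Python 3.11.15, pandas 2.3.3 and SciPy 1.17.1. Alternatives were other pseudocounts, filters, weighting, thinning and pools, and, chosen after seeing the data, the pair of nuclei with precursor genes left out, all nuclei thinned to the 384-well depth, plate codes as a block, a fit of the transgene term over 6 pools, and *Vcan* class means without nuclei at 10 RPKM or more.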

Additional observations from a re-analysis of the deposited data

Results flagged for a closer look

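The *Itpr2* ratios had opposite signs in the 2 labels, but only with the pair of nuclei with precursor genes left out. The log2 ratio of nuclei labelled Ehmt1Δ/+ to WT was 0.73 on 96-well and 0.65 on 384-well plates in oligodendrocytes, and −0.33 and −0.54 in neurons once the pair of nuclei with precursor genes was left out. With the pair kept, the neuronal ratio on 96-well plates was 0.98. Neither ratio over both formats was called by limma, with adjusted p of 0.870 in oligodendrocytes and 0.463 in neurons without the pair. The oligodendrocyte interval spanned 0. Under 1 shared plate code *Itpr2* was above 0 in 4 of 18 WT and 3 of 17 labelled Ehmt1Δ/+ oligodendrocytes. The difference between the labels was not tested.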

How the results depend on the processing

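The count of members called by limma was 0 under each of 15 alternatives. Of 92 alternative log2 ratios of members, 76 kept their direction and 16 reversed. In oligodendrocytes *Bcas1* became −0.0049 with means weighted by depth and −0.0054 without the highest nucleus of each pool, and *Sox10* became −0.032 over 6 pools. In neurons *Vcan* and *Itpr2* became −0.10 and −0.16 over 6 pools, and −0.45 and −0.44 without the pair of nuclei with precursor genes. Leaving out the plates of either format gave ranges of −0.16 to 0.19 for *Bcas1*, −0.026 to 0.15 for *Sox10*, −0.065 to 0.56 for *Enpp6* and −0.025 to 0.20 for *Olig1* in oligodendrocytes, and −0.49 to 0.70 for *Vcan* and −0.54 to 0.98 for *Itpr2* in neurons. The labels pair no pools by replicate number, but 3 plate codes on 96-well plates held both genotypes. Each of these codes held more nuclei than a 96-well plate, so the code may not be a shared batch. A fit over these alone with the code as replicate block was added after seeing the data. It gave −0.15 for *Bcas1*, −5.6e-05 for *Enpp6* and −0.14 for *Olig1* in oligodendrocytes and changed no call. The cause of the reversals was not tested, except that leaving out the pair alone reversed both neuronal ratios. The count of nuclei with the precursor genes was 37 when any 2 of the 3 sufficed, and the count of members past the fold limit in oligodendrocytes was 1 at 1.5-fold. Shares above 0 left their interval in 17 of 120 cases when at least 2 reads were required, in 29 of 120 after thinning within a format, in 50 of 120 after thinning to the 384-well depth, and in 0 of 10 without the pair. limma with a trend called 2 genes of all in oligodendrocytes and 0 in neurons. There was 1 pool per genotype and format, and codes split the same pools of mice.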

Other observations

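A single neuron of the 96-well pool labelled Ehmt1Δ/+ had 16 of 16 mature oligodendrocyte markers above 0, and it was the only nucleus labelled Neuron or Microglia with 12 or more. *Mbp* was at 105 RPKM and *Mog* at 19.4. *Snap25* was at 121 and *Meg3* at 1036, against neuronal medians of 133 and 708 in the pool. *Bcas1* was at 5.97 RPKM, *Sox10* at 6.64 and *Olig1* at 2.78, and *Pdgfra*, *Cspg4*, *Vcan*, *Gpr17*, *Enpp6* and *Olig2* were 0.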
